A study of Mus musculus with 12 samples.

Results

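The 9 genes Sox1, Pax6, Nes, Sox11, Dll1, Hes5, Pax3, Tubb3 and Zic1 mark neural progenitors and the Notch pathway, and their transcripts were followed here in mouse embryonic stem cells. They were chosen by name among the 22911 named genes on the array, and every non-control probe whose accession belongs to 1 of them was taken, which gave 14 probes. The scanner software marks a spot as well above background or not, and 11 of the 14 probes, with at least 1 for each of the 9 genes, carried that mark on all 3 arrays of at least 1 group. Gene expression was read on 12 one-colour microarrays in 4 groups of 3, which the series describes as biological replicates. The first group received the proteasome inhibitor MG132 at 1 µM, was given 4OHT at 250 nM 30 min later, and was collected after 6 h with both compounds. The second group received MG132 alone on the same schedule, and the third received 250 nM 4OHT alone for 6 h. The fourth group was left untreated and its titles place it at 0 h. All 4 groups grew in embryonic stem cell medium with leukaemia inhibitory factor (LIF) and 250 nM PD173074, which blocks fibroblast growth factor receptors. 4OHT, or 4-hydroxytamoxifen, can activate a protein that carries an engineered oestrogen receptor domain, but the labels name neither such a protein nor the cell line. No untreated group at 6 h and no vehicle was labelled, so hours and compound change together in every comparison with untreated cells.

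In the neural plate, Sox1, Pax6 and Zic1 encode transcription factors of early neural progenitors, Pax3 encodes one of the dorsal neural tube and neural crest, and Nes encodes the progenitor intermediate filament nestin. Sox11 and Tubb3, which encodes a neuron-enriched beta-tubulin, mark cells on the way to neurons, although both can be transcribed in stem cells. Notch signalling joins neighbouring cells: the ligand Dll1 on one cell binds a Notch receptor on the next, the receptor is cut, and its inner part joins the DNA-binding protein RBPJ to switch on repressors such as Hes5. Hes repressors are known to hold down proneural genes and Notch ligands, and proteasomes degrade both Hes proteins and the active part of Notch.

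The sequences around the starts of Hes5 and Dll1 are shown because these genes are the target and the ligand of the pathway. They are RefSeq sequences of the GRCm38.p6 build, from 250 bases before to 50 bases after an annotated start, each written 5′ to 3′ along the gene. Capitals mark a match to the RBPJ motif GTGGGAA or the N-box CACNAG, the kind of site bound by Hes repressors, on either strand. The Hes5 sequence lies at chr4:154960673-154960972 on the plus strand and the Dll1 sequence, from the second of its annotated starts, at chr17:15376883-15377182 on the minus strand. This start of Dll1 was chosen because it holds an N-box match, and the sequence at the first start holds neither motif.
Hes5: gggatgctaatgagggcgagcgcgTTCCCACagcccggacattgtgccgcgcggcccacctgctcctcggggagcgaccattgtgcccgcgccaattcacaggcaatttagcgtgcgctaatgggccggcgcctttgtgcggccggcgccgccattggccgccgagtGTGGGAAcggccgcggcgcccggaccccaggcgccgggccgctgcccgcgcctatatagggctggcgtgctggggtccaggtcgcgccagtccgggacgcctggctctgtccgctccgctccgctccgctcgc
Dll1: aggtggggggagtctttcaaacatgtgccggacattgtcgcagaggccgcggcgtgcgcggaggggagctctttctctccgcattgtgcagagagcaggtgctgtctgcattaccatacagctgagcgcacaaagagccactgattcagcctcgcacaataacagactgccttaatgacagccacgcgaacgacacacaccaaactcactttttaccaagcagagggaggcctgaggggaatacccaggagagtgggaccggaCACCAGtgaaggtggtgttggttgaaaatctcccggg
The Hes5 sequence held the RBPJ motif 2 times, with first bases at -226 (reverse strand) and -83 (gene strand) from the start. The table held 10 promoter sequences for 8 of the 9 genes, and of these 1 carried the RBPJ motif, against 6.38% of the 32851 promoters in the table. The N-box was found in 3 of the 10, at +14 in the Dll1 sequence, at -136 in the second Pax6 sequence and at -55 in that of Sox11, against 42.5% of all promoters. A match describes these letters and does not show binding.

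All 10 markers of embryonic stem cells on the list used here were well above background on every array. Between 49.5% and 63.2% of probes were well above background on an array, and the 75th percentile of intensity, to which each array was scaled, lay between 309 and 485 units. A scaled intensity below is the spot's processed intensity after that scaling, and a log2 difference is the difference of group means on the log2 scale with its standard error. A gene was called at an adjusted p under 0.05 in limma, fitted over 26836 genes on all 12 arrays with Benjamini-Hochberg adjustment, and a p-value here reflects only how these 12 samples spread. The untreated and 4OHT arrays and MG132 replicates 1 and 2 shared slide 1, and MG132 replicate 3 lay on slide 2 with the 3 arrays of MG132 with 4OHT. The log2 difference of the median gene lay between 0.03 and 0.19 in the 6 comparisons, and centring arrays on the median instead of the 75th percentile shifted it to between -0.27 and 0.14. In bulk RNA, fewer cells of a type and less RNA per cell cannot be told apart.

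**Figure D1:**
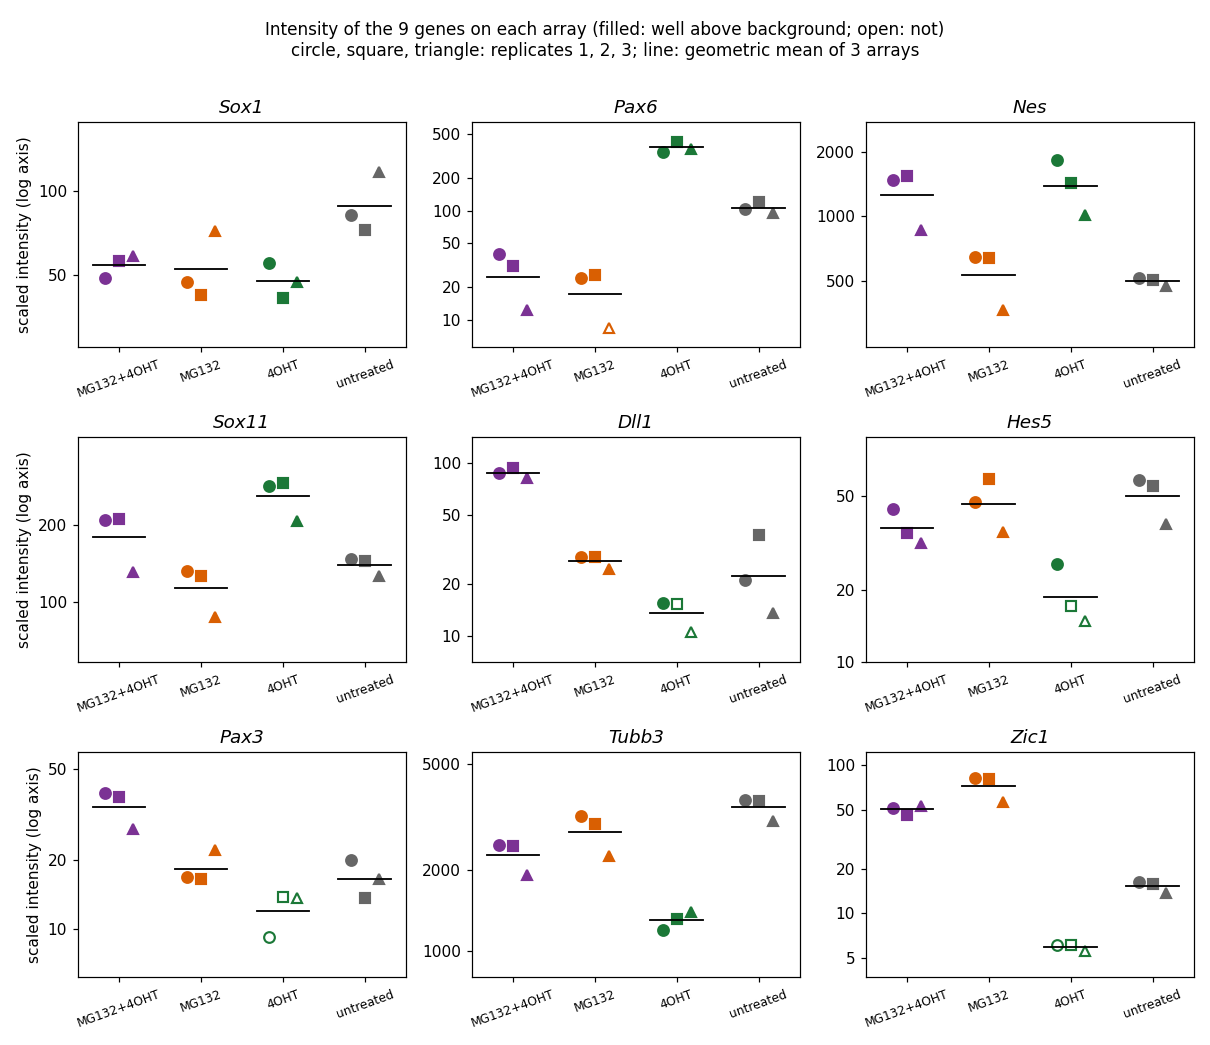
Scaled intensity of the brightest probe of each of the 9 genes on each of the 12 arrays (vertical log axis, its range set per gene), with the 4 groups along the horizontal axis and the geometric mean of 3 arrays as a line. Dll1 lay between 82.5 and 94.5 on the arrays of MG132 with 4OHT and at or below 38.5 elsewhere, and Pax6 lay between 346 and 427 with 4OHT and at or below 120 elsewhere.

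Dll1, on chromosome 17, encodes the Delta-like ligand and was highest when both compounds were present. Its scaled intensity was 87.6, 94.5 and 82.5 with MG132 and 4OHT together, 28.7, 28.7 and 24.3 with MG132 alone, 15.4, 15.3 and 10.5 with 4OHT alone, and 21.0, 38.5 and 13.5 in untreated cells. The 3 arrays with both compounds stood above all 9 others, while the untreated arrays overlapped with those of MG132 and with those of 4OHT. All MG132 arrays lay above all 4OHT arrays, of which 1 of 3 was well above background. With both compounds Dll1 rose 3.25-fold over MG132 alone (log2 difference 1.70 ± 0.31, limma adjusted p = 0.0035), 6.52-fold over 4OHT alone (2.71 ± 0.31, adjusted p = 6.9e-05) and 3.96-fold over untreated cells (1.99 ± 0.31, adjusted p = 4.0e-04). Neither compound alone passed the test against untreated cells, with log2 differences of -0.72 ± 0.31 for 4OHT (adjusted p = 0.12) and 0.29 ± 0.31 for MG132 (adjusted p = 0.5). Under normexp, a background correction run here with an offset of 50 units on every spot, the log2 difference for 4OHT was 0.08 (adjusted p = 0.56). That offset pulls log2 differences of dim spots towards 0. For dim genes a smaller value or a lost call under normexp therefore cannot decide whether they changed. The 4OHT response of Dll1 with MG132 differed from that without it by 2.42 ± 0.44 on the log2 scale (95% interval 1.43 to 3.40, adjusted p = 0.011). The untreated spread decided the calls of the single compounds: without untreated replicate 3 the log2 difference for 4OHT was -1.08 (adjusted p = 0.014), and without untreated replicate 2 that for MG132 was 0.68 (adjusted p = 0.038). With slide as a block the log2 difference of both compounds from MG132 was 1.86 (adjusted p = 0.035). With slide and replicate number both as blocks the calls were lost for both compounds against MG132 (1.47, adjusted p = 0.057), against untreated cells (1.64, adjusted p = 0.052) and for the difference of responses (2.19, adjusted p = 0.054). Under normexp both compounds against MG132 gave 0.72 (adjusted p = 6.1e-04) and the difference of responses 0.63 (adjusted p = 0.031).

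Hes5, on chromosome 4, is the direct Notch target whose start is printed above, and it was lowest with 4OHT alone. The scaled intensity of its detected probe was 44.2, 34.8 and 31.7 with MG132 and 4OHT, 47.2, 58.9 and 35.1 with MG132, 25.9, 17.1 and 14.9 with 4OHT, and 58.6, 55.2 and 38.1 in untreated cells. All 3 arrays with 4OHT alone lay below the other 9, and 1 of the 3 was well above background, while the other groups overlapped. Hes5 fell 2.65-fold with 4OHT (log2 difference -1.41 ± 0.26, limma adjusted p = 0.0027). MG132 alone gave -0.11 ± 0.26 (95% interval -0.70 to 0.47, adjusted p = 0.76) and both compounds together -0.45 ± 0.26 (adjusted p = 0.17) against untreated cells, the last at -0.85 under median centring (adjusted p = 0.016). With both compounds Hes5 was 1.94-fold higher than with 4OHT alone (0.96 ± 0.26, adjusted p = 0.012). The gap between its responses to 4OHT in the presence and absence of MG132, 1.07 ± 0.37, did not pass the test (adjusted p = 0.12), and did without 4OHT replicate 1 (1.30, adjusted p = 0.049). Under normexp the fall with 4OHT was -0.29 (adjusted p = 0.12) and the gain of both compounds over 4OHT 0.27 (adjusted p = 0.15), so neither passed. That gain was 1.09 with slide and replicate number as blocks (adjusted p = 0.071). The second Hes5 probe was on no array well above background.

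Other Notch genes moved in both directions, as all genes did. Of all genes tested, 13.9% were higher and 14.7% lower with 4OHT, and 24.1% and 19% with MG132. With both compounds these shares were 13.9% and 12.6% against MG132 and 29.4% and 20.9% against 4OHT. Among 10 tested receptors and ligands, a list that includes Dll1, 4OHT raised 3 and lowered 4 against untreated cells, with a median log2 difference of -0.40 (0.05 under normexp). The ligand gene Jag1 fell with 4OHT (log2 difference -1.0 ± 0.13, limma adjusted p = 3.3e-04), as did the inhibitory ligand gene Dll3 (-1.35 ± 0.27, adjusted p = 0.004), and the ligand gene Jag2 rose (0.85 ± 0.12, adjusted p = 4.7e-04). MG132 raised 4 of the 10 and lowered 1, with a median of 0.34 (0.00 under median centring): the receptor gene Notch3 rose by 1.35 ± 0.12 (adjusted p = 1.6e-05) and Jag2 by 1.35 ± 0.12 (adjusted p = 1.7e-05), and the receptor gene Notch4 fell by 1.52 on the log2 scale (adjusted p = 4.6e-05). With both compounds against MG132, 2 rose and 2 fell, and Dll1 gave the largest log2 difference of the 10 there, followed by Jag2 (-0.79 ± 0.12, adjusted p = 0.0012) and the Delta-like gene Dlk1 (0.72 ± 0.12, adjusted p = 0.0022). With both compounds against 4OHT, 7 of the 10 rose and 1 fell, with a median of 0.98.

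Genes for Notch processing and its transcription complex moved in both directions, with 6 of 24 tested higher and 6 lower with 4OHT (median 0.12), 5 and 5 with MG132 (median -0.07; 2 and 12 under median centring), and 4 and 6 with both compounds against MG132 (median -0.00). Of all genes, 13.9% were higher and 14.7% lower with 4OHT, 24.1% and 19% with MG132, and 13.9% and 12.6% with both compounds against MG132. Rbpj, which encodes the DNA-binding partner of Notch, had a scaled intensity of 3520, 3270 and 2960 with MG132 and 5750, 5960 and 5950 in untreated cells. It fell with MG132 by 0.86 on the log2 scale (limma adjusted p = 5.8e-05), and with both compounds it was 1.01 lower on the log2 scale than with 4OHT (adjusted p = 1.6e-05). The coactivator gene Maml3 was at 22.3, 94.7 and 75.3 scaled intensity with 4OHT, and on no untreated array was it well above background, so it was at least 7.08-fold higher with 4OHT (adjusted p = 2.4e-04). Dtx1, a Notch target and regulator, fell with 4OHT (-2.51 ± 0.22, adjusted p = 2.1e-05), and Mfng, which encodes a fringe enzyme that modifies Notch, rose with MG132 (1.36 ± 0.10, adjusted p = 4.9e-06). Among 8 tested Hes, Hey and similar targets, Hes5 included, 3 fell with 4OHT and 5 were not called, against a median of -0.13 for the list and 0.03 for all genes, though under normexp 1 rose and 1 fell. Hes1, the repressor gene most used in stem cells, had a scaled intensity of 137, 181 and 248 with 4OHT and 374, 406 and 322 in untreated cells (log2 difference -1.0 ± 0.21, adjusted p = 0.0057). Hes1 fell also with MG132 (-0.67 ± 0.21, adjusted p = 0.028), and with both compounds it was lower than with MG132 (-1.17 ± 0.21, adjusted p = 0.0033). Hes3 was well above background in untreated cells and on none of the 9 other arrays. It was at least 1.23-fold lower with 4OHT (adjusted p = 3.3e-04) and at least 1.53-fold lower with MG132 (adjusted p = 2.2e-04). Throughout, an adjusted p after an at-least fold tests the full log2 difference, not that fold. For Hes3 this difference was -2.60 with 4OHT and -2.59 with MG132, and it includes signals not well above background.

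Pax6, on chromosome 2, encodes a transcription factor of the neural tube and eye, and 4OHT and MG132 moved it in opposite directions. The scaled intensity of its brightest probe was 39.7, 30.9 and 12.2 with MG132 and 4OHT, 24.3, 25.9 and 8.42 with MG132, 346, 427 and 369 with 4OHT, and 103, 120 and 94.8 in untreated cells. The 4OHT arrays lay above the untreated ones and these above all 6 arrays with MG132, of which MG132 replicate 3 was not well above background. Pax6 rose 3.6-fold with 4OHT (log2 difference 1.85 ± 0.48, limma adjusted p = 0.015) and fell 6.03-fold with MG132 (-2.59 ± 0.48, adjusted p = 0.0016). With both compounds it was 15.4-fold lower than with 4OHT (-3.94 ± 0.48, adjusted p = 9.3e-05) and 4.27-fold lower than in untreated cells (-2.09 ± 0.48, adjusted p = 0.0039). Adding 4OHT to MG132 gave 0.50 ± 0.48 (95% interval -0.56 to 1.56, adjusted p = 0.47), and the difference between the 4OHT responses was -1.35 ± 0.67 (adjusted p = 0.29), so a loss of the 4OHT response under MG132 was not called for Pax6 by this test. It was called without the replicate 3 arrays (-1.31, adjusted p = 0.029). Under normexp the difference was -1.24 (adjusted p = 5.4e-04), but that run cannot decide the question. Its offset of 50 units exceeds the Pax6 intensity on every array with MG132 (39.7 or lower). It pulls the 4OHT response there towards 0, from 0.50 to 0.20. The difference was -0.30 with slide as a block (adjusted p = 0.88) and -0.70 with replicate number as a further block (adjusted p = 0.62). Under the slide block the addition of 4OHT to MG132 gave 1.55, which rests on MG132 replicate 3 as the only MG132 array on slide 2. A second Pax6 probe gave 1.71 ± 0.24 with 4OHT (adjusted p = 5.4e-04), and with MG132 it was on no array well above background, at least 4.41-fold below untreated cells. The 2 other Pax6 probes did not pass the filter, and 1 of these was well above background on 1 array, 4OHT replicate 1. With slide as a block the fall with both compounds against untreated cells was -0.52 (adjusted p = 0.62) and that against 4OHT -2.37 (adjusted p = 0.034). Under normexp the fall with MG132 was -0.92 (adjusted p = 3.0e-05) and that of both compounds against 4OHT -2.16 (adjusted p = 2.6e-08).

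Zic1, on chromosome 9, encodes a zinc finger factor of the dorsal neural tube, and its order over the groups was the reverse of that of Pax6. Its scaled intensity was 51.6, 46.4 and 53.4 with MG132 and 4OHT, 81.4, 81.1 and 56.6 with MG132, 6.08, 6.15 and 5.55 with 4OHT, and 16.2, 15.8 and 13.7 in untreated cells. No array of 1 group overlapped with another group's, and none of the 4OHT arrays was well above background. Zic1 rose 4.74-fold with MG132 (log2 difference 2.25 ± 0.15, limma adjusted p = 3.0e-06) and was 3.32-fold higher with both compounds than in untreated cells (1.73 ± 0.15, adjusted p = 7.0e-06). With both compounds it was at least 3.6-fold higher than with 4OHT (adjusted p = 3.6e-07), where the bound sets the brighter mean against the lowest intensity well above background on each dim array. Under normexp the rise with MG132 was 0.85 (adjusted p = 8.1e-05) and that of both compounds over 4OHT 0.56 (adjusted p = 0.0017). For 4OHT against untreated cells the fall was at least 1.08-fold. The full log2 difference, with 4OHT signals not well above background, was -1.36 ± 0.15 (adjusted p = 8.7e-05). Under normexp it was 0.14 (adjusted p = 0.32). With both compounds Zic1 was lower than with MG132 alone (-0.51 ± 0.15, adjusted p = 0.026), a call lost without any 1 of replicates 1 and 2 of either group (-0.43 to -0.53, adjusted p 0.064 to 0.099) and with slide as a block (-0.17, adjusted p = 0.53). The difference between its 4OHT responses was 0.84 ± 0.21 (adjusted p = 0.038), a value that rests on 4OHT signals not well above background. That call turned to -0.29 under normexp (adjusted p = 0.34) and missed the threshold when 1 of untreated replicates 1 and 2, of 4OHT replicates 2 and 3, or of the arrays with both compounds was left out (0.80 to 0.90, adjusted p 0.056 to 0.097).

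Pax3, on chromosome 1, had the same order of groups as Dll1. Its scaled intensity was 39.5, 37.7 and 27.3 with MG132 and 4OHT, 17, 16.6 and 22.2 with MG132, 9.26, 13.9 and 13.7 with 4OHT, and 20.1, 13.7 and 16.6 in untreated cells. The arrays with both compounds lay above the other 9, and none of the 4OHT arrays was well above background. With both compounds Pax3 rose 1.86-fold over MG132 (log2 difference 0.90 ± 0.22, limma adjusted p = 0.014), 2.07-fold over untreated cells (1.05 ± 0.22, adjusted p = 0.0023) and at least 2.45-fold over 4OHT (adjusted p = 2.9e-04). It was not called with MG132 (0.15 ± 0.22, adjusted p = 0.62) or with 4OHT (-0.46 ± 0.22, adjusted p = 0.15) against untreated cells. Under normexp the value for 4OHT was 0.22 (adjusted p = 0.077). The difference between its 4OHT responses was 1.36 ± 0.31 (adjusted p = 0.028), which likewise includes 4OHT signals not well above background. The rise over MG132 was no longer called without replicate 1 or 2 of either group (0.80 to 0.84, adjusted p 0.05 to 0.056) or with slide as a block (0.63, adjusted p = 0.23), and was 0.26 under normexp (adjusted p = 0.064). With slide as a block the rise over untreated cells was 0.65 (adjusted p = 0.25) and that over 4OHT 1.1 (adjusted p = 0.073), and under normexp the rise over 4OHT was 0.22 (adjusted p = 0.082). The difference of responses was lost without untreated replicate 1 or 3 or without replicate 1 or 2 of MG132 or of both compounds (1.22 to 1.36, adjusted p 0.055 to 0.076), and was 0.04 under normexp (adjusted p = 0.91).

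Sox1, on chromosome 8, encodes an early neural plate factor and was highest in untreated cells. Its scaled intensity was 49.0, 56.4 and 58.7 with MG132 and 4OHT, 47.3, 42.7 and 72.3 with MG132, 55.3, 41.6 and 47.5 with 4OHT, and 81.9, 72.7 and 117 in untreated cells. All 12 arrays were well above background, every untreated array lay above the 9 treated ones, and the 3 treated groups overlapped. Sox1 fell 1.86-fold with 4OHT (log2 difference -0.89 ± 0.23, limma adjusted p = 0.014), 1.69-fold with MG132 (-0.75 ± 0.23, adjusted p = 0.021) and 1.63-fold with both (-0.70 ± 0.23, adjusted p = 0.023). The addition of 4OHT to MG132 gave 0.05 ± 0.23 (95% interval -0.45 to 0.55, adjusted p = 0.89), and the difference between the 4OHT responses, 0.94 ± 0.32, was not called (adjusted p = 0.12), but was without MG132 replicate 3 (1.17, adjusted p = 0.037). The fall with 4OHT was -0.79 without 4OHT replicate 2 (adjusted p = 0.05, just above the threshold) and -0.27 under normexp (adjusted p = 0.11). The fall with MG132 was lost without untreated replicate 3 or MG132 replicate 1 or 2 (-0.55 to -0.68, adjusted p 0.069 to 0.082), and that with both compounds without untreated replicate 3 (-0.50, adjusted p = 0.087) or replicate 1 with both compounds (-0.63, adjusted p = 0.075) or under normexp (-0.22, adjusted p = 0.15).

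Other factors of the neural plate moved in both directions with each compound. Among all genes 13.9% were higher and 14.7% lower with 4OHT, 24.1% and 19% with MG132, and 13.9% and 12.6% with both compounds against MG132. Of 18 tested, the 4 above included, 4OHT raised 5 and lowered 5 (median log2 difference -0.02), or 7 and 2 under normexp (median 0.22). Gbx2, a hindbrain border factor also used in naive stem cells, had a scaled intensity of 118, 87.4 and 112 with both compounds, 168, 162 and 160 with MG132, 3260, 3030 and 3600 with 4OHT, and 531, 522 and 617 in untreated cells. Gbx2 thus rose with 4OHT (2.57 ± 0.13, limma adjusted p = 9.4e-07) and fell with MG132 (-1.77 ± 0.13, adjusted p = 5.2e-06), as Pax6 did. The anterior factor gene Hesx1 fell with 4OHT (-2.48 ± 0.56, adjusted p = 0.0073). MG132 raised 4 of the 18 and lowered 10, with a median of -0.56. Zic5, a relative of Zic1, fell with MG132 (-2.64 ± 0.37, adjusted p = 2.8e-04), and Irx3, a factor of the neural tube, was at least 3.75-fold higher with MG132 (adjusted p = 3.7e-06). With both compounds against MG132, 4 rose and 4 fell (median 0.53), among them Irx3, which rose by 1.04 ± 0.17 (adjusted p = 0.0019), and Lhx5 (0.99 ± 0.15, adjusted p = 0.0012). Of 9 tested neural crest and border genes, 2 rose and 1 fell with 4OHT, or 1 and 2 under median centring: Msx1 rose by 4.78 ± 0.31 (adjusted p = 3.2e-06), Tfap2a by 0.66 ± 0.17 (adjusted p = 0.016), and Snai2 fell (-2.44 ± 0.53, adjusted p = 0.0063).

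Nes, on chromosome 3, rose with 4OHT whether or not MG132 was present. Its scaled intensity was 1480, 1540 and 864 with MG132 and 4OHT, 648, 637 and 365 with MG132, 1840, 1440 and 1010 with 4OHT, and 514, 503 and 471 in untreated cells. Every array with 4OHT lay above every array without it. Nes rose 2.8-fold with 4OHT over untreated cells (log2 difference 1.48 ± 0.30, limma adjusted p = 0.004), 2.36-fold with both compounds over MG132 (1.24 ± 0.30, adjusted p = 0.013) and 2.53-fold with both over untreated cells (1.34 ± 0.30, adjusted p = 0.0034). MG132 alone gave 0.10 ± 0.30 (95% interval -0.56 to 0.76, adjusted p = 0.81). The 4OHT responses with and without MG132 differed by -0.25 ± 0.42, with a 95% interval of -1.18 to 0.69 (adjusted p = 0.79). The rise over MG132 was 1.12 without replicate 1 with both compounds (adjusted p = 0.052) and 1.09 without replicate 2 (adjusted p = 0.053). It was 1.78 with slide as a block, a value that rests on MG132 replicate 3. That array is the only MG132 array on slide 2 and was the lowest of its group. With replicate number as a further block the rise was 1.43.

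Sox11, on chromosome 12, encodes a transcription factor of newborn neurons and followed Nes by its brighter probe, but its probes disagreed. The scaled intensity of the brighter probe was 208, 210 and 131 with MG132 and 4OHT, 132, 127 and 87.5 with MG132, 284, 292 and 207 with 4OHT, and 147, 145 and 127 in untreated cells. The 4OHT arrays lay above the untreated ones, and the other neighbouring groups overlapped. By this probe Sox11 rose 1.85-fold with 4OHT (log2 difference 0.89 ± 0.23, limma adjusted p = 0.014). The second probe read 85.5, 106 and 21.9 with 4OHT and 63.0, 67.6 and 66.6 in untreated cells, a log2 difference of -0.17 ± 0.49 (adjusted p = 0.83), and the mean over the probes gave 0.36 (adjusted p = 0.48). Both compounds against MG132 gave 0.66 ± 0.23 by the brighter probe (adjusted p = 0.055). This passed without replicate 3 with both compounds (0.88, adjusted p = 0.017) or without 4OHT replicate 3 (0.66, adjusted p = 0.043). With slide as a block it was 1.03, which rests on MG132 replicate 3 as the only MG132 array on slide 2. Both compounds gave -0.53 ± 0.23 against 4OHT (adjusted p = 0.074) and 0.36 ± 0.23 against untreated cells (adjusted p = 0.2), and these passed without 4OHT replicate 3 (-0.69, adjusted p = 0.037) and without replicate 3 with both compounds (0.59, adjusted p = 0.04).

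Tubb3, on chromosome 8, was lowest with 4OHT alone, as Hes5 was. Its scaled intensity was 2480, 2470 and 1920 with MG132 and 4OHT, 3180, 2990 and 2260 with MG132, 1200, 1320 and 1400 with 4OHT, and 3670, 3630 and 3050 in untreated cells. All 12 arrays were well above background, and the 4OHT arrays lay below the other 9. Tubb3 fell 2.64-fold with 4OHT (log2 difference -1.40 ± 0.15, limma adjusted p = 1.1e-04), and this call held in all 28 alternatives run, from -1.30 to -1.56. With both compounds it was 1.75-fold higher than with 4OHT (0.81 ± 0.15, adjusted p = 0.0017) and 1.51-fold lower than in untreated cells (-0.60 ± 0.15, adjusted p = 0.0081, or -0.15 with slide as a block, adjusted p = 0.7). MG132 alone gave -0.31 ± 0.15 (adjusted p = 0.14) and the addition of 4OHT to MG132 -0.29 ± 0.15 (adjusted p = 0.19). The first was called under median centring (-0.64, adjusted p = 0.016) and the second without the replicate 3 arrays (-0.32, adjusted p = 0.04). The 4OHT responses with and without MG132 differed by 1.11 ± 0.22 (95% interval 0.62 to 1.60, adjusted p = 0.015). This call was lost without the replicate 1 arrays (1.04, adjusted p = 0.18) or the replicate 2 arrays (1.07, adjusted p = 0.35).

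Other neuronal genes did not follow Tubb3 as a group. Of 17 tested proneural and neuronal genes, Sox11 and Tubb3 included, 4OHT raised 4 and lowered 4 (median log2 difference -0.15), or 4 and 6 under median centring. MG132 also raised 4 and lowered 4 (median -0.25), or 3 and 7 under median centring. Among all genes 13.9% were higher and 14.7% lower with 4OHT, and 24.1% and 19% with MG132. Nefm, which encodes a neurofilament subunit, had a scaled intensity of 3330, 3130 and 2620 with both compounds, 99.2, 78.1 and 62.8 with MG132, 1330, 1120 and 675 with 4OHT, and 46.5, 37.9 and 41.1 in untreated cells. It rose with 4OHT (4.59 ± 0.25, limma adjusted p = 1.3e-06) and with both compounds over MG132 (5.26 ± 0.25, adjusted p = 3.4e-06). With both compounds against MG132, 3 of the 17 rose and 3 fell (median 0.32), or 5 and 2 under normexp, against 13.9% and 12.6% of all genes. The other 2 that rose were the neurofilament gene Nefl (3.01 ± 0.23, adjusted p = 3.4e-05) and Sox4, a relative of Sox11 (1.99 ± 0.20, adjusted p = 1.5e-04). Nefl fell with MG132 alone against untreated cells (-1.56 ± 0.23, adjusted p = 4.6e-04). Map2, which encodes a microtubule protein of neurons, fell with 4OHT (-1.59 ± 0.26, adjusted p = 0.0011). Neurod1, a proneural factor gene, read 589, 540 and 638 with MG132 and 106, 124 and 159 in untreated cells (2.20 ± 0.32, adjusted p = 4.1e-04). Of 9 tested filament, adhesion and glial genes, Nes included, 3 rose with 4OHT and 1 fell. The others that rose were Cdh2, which encodes N-cadherin (2.41 ± 0.16, adjusted p = 3.4e-06), and the filament gene Vim (1.07 ± 0.25, adjusted p = 0.0088). The gene that fell was the adhesion gene Ncam1 (-1.38 ± 0.30, adjusted p = 0.0063).

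**Figure D2:**
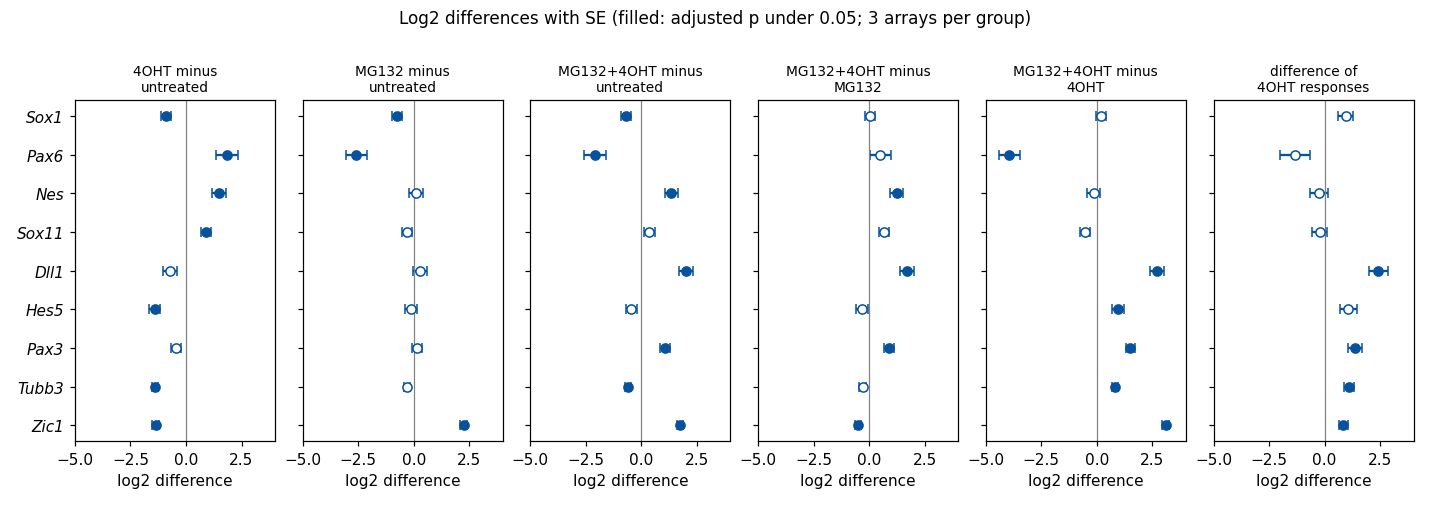
Log2 differences with standard errors for the 9 genes in 5 comparisons of groups of 3 arrays and, on the right, in the 4OHT response under MG132 minus that in its absence. Filled points passed an adjusted p of 0.05: Nes lies right of 0 wherever 4OHT was added, and Dll1 and Pax3 are filled only in the 4 panels that involve both compounds.

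Set against all genes tested, the 9 genes gave these counts. With 4OHT against untreated cells 3 rose (Pax6, Nes and Sox11), 4 fell (Sox1, Hes5, Tubb3 and Zic1) and 2 were not called, against 28.6% of all 26836 genes called (13.9% higher and 14.7% lower). The groups of 3 did not overlap for 7 of the 9, against 40.8% of all genes, and the median log2 difference of the 9 was -0.72, against 0.03 for all genes. With MG132 against untreated cells 1 rose (Zic1), 2 fell (Sox1 and Pax6) and 6 were not called, against 43.1% of all genes called (24.1% higher and 19% lower). Groups did not overlap for 3 of the 9 with MG132, against 59.5% of all genes, with median log2 differences of -0.11 and 0.07 for the 9 and for all genes. With both compounds against MG132, 3 rose (Nes, Dll1 and Pax3), 1 fell (Zic1) and 5 were not called, against 26.5% called among all genes (13.9% higher and 12.6% lower). Groups did not overlap for 4 of the 9 there, against 50.1% of all genes, with medians of 0.50 and 0.07. With both compounds against 4OHT, 5 rose (Dll1, Hes5, Pax3, Tubb3 and Zic1), 1 fell (Pax6) and 3 were not called, against 50.2% called among all genes (29.4% higher and 20.9% lower). Groups did not overlap for 6 of the 9 in that comparison, against 57.4% of all genes, with medians of 0.81 and 0.13. With both compounds against untreated cells, 4 rose (Nes, Dll1, Pax3 and Zic1) and 3 fell (Sox1, Pax6 and Tubb3), against 55.6% called among all genes (33.2% higher and 22.5% lower). Groups did not overlap for 7 of the 9, against 71.9% of all genes. The difference between the 4OHT responses was called for 4 of the 9, all upward, against 6.55% of all genes called in either direction, 2.94% upward and 3.61% downward. These comparisons share groups of arrays, so their counts are not independent of each other. Without the arrays numbered 2, 2 of the 9 were called with 4OHT against untreated cells, 1 for both compounds against MG132, 3 for both against untreated cells and 0 for the difference of responses (4 at an unadjusted limma p under 0.05). The genes called among all 26836 then numbered 2285, 993, 8952 and 0 (2670 unadjusted) in the same order. Without those numbered 1 the counts were 3 with 4OHT, 0 for both compounds against MG132 (3 unadjusted) and 0 for the difference of responses (6 unadjusted). All genes called then numbered 3904, 2319 and 106. Leaving out 1 array moved the count for both compounds against MG132 to 2 without MG132 replicate 1 or 2 and to 1 without replicate 1 or 2 of both compounds. All genes called then numbered 4800, 4722, 4676 and 4620. Leaving out 1 array moved the count for the difference of responses to 2 without untreated replicate 1 or without replicate 1 or 2 of both compounds. All genes called then numbered 1108, 1087 and 1037. With normexp, 4 of the 9 and 10324 of all genes were called with 4OHT. The splits of all genes called with 4OHT were 7068 higher and 3256 lower under normexp, 2390 and 5353 under median centring and 2971 and 4850 under quantile normalization, against 3731 and 3936 here.

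The slide bears on every comparison of both compounds, since the 4OHT and untreated arrays lie on one slide and the arrays with both compounds on the other. These can be set apart only through MG132, which has arrays on each. Of its arrays only replicate 3 lies on slide 2. With slide as a block, each comparison of both compounds therefore rests on that 1 MG132 array, and so does any call there. Against MG132 the values were those of slide 2 alone, such as 1.86 for Dll1 and 1.78 for Nes. With slide as a block, 3 of the 9 were called for both compounds against MG132 and 5 against 4OHT. For both compounds against untreated cells 4 were called, and for the difference of responses 3. All genes called under that block numbered 2987, 5336, 7022 and 802 of 26836, in the same order. Dll1 and Tubb3 stayed called for the difference of responses under that block (2.58, adjusted p = 0.047, and 1.41, adjusted p = 0.015), as did Zic1 (1.19, limma adjusted p = 0.012), and Pax3 did not (1.09, adjusted p = 0.17). With replicate number as a further block Tubb3 (1.31, adjusted p = 0.036) and Zic1 (1.14, adjusted p = 0.028) were called. Dll1 (2.19, adjusted p = 0.054) and Pax3 (1.04, adjusted p = 0.29) were not. The values of Zic1 rest on 4OHT signals not well above background, and its sign turned under normexp (-0.29). Some markers of other cell types also differed with 4OHT, alone and on top of MG132, and a sum weighs its brightest genes most. Of 8 tested fibroblast markers, 3 rose and 1 fell with 4OHT, and 2 rose and 0 fell with both compounds against MG132. Of 8 tested mesendoderm markers, 4 rose and 1 fell with 4OHT, and 2 rose and 3 fell with both compounds against MG132. Among all genes 13.9% rose and 14.7% fell with 4OHT, and 13.9% and 12.6% with both against MG132. The summed scaled intensity of 12 fibroblast markers was 8100 to 12400 with 4OHT against 774 to 1030 in untreated cells. Of the 12, 6 (Col1a1, Col3a1, Dcn, Lum, Postn and Twist2) were on no 4OHT array well above background. The same sum was 2440 to 2850 with both compounds against 1710 to 1730 with MG132, with Lum and Twist2 on no array of either group well above background. The summed scaled intensity of 9 mesendoderm markers was 1310 to 2020 with 4OHT against 309 to 363 in untreated cells, with Mixl1, Gsc and Wnt3 on no 4OHT array well above background. It was 1010 to 1120 with both compounds against 504 to 513 with MG132, with Mixl1 on none of these arrays well above background. That of 10 primitive endoderm markers was 61900 to 94900 with 4OHT against 48300 to 69000 in untreated cells, ranges that overlap. It was 81400 to 93900 with both compounds against 46900 to 66900 with MG132, ranges that do not. Of these 10, 2 rose and 0 fell with 4OHT, and 3 rose and 0 fell with both compounds against MG132. The stem cell markers moved with MG132: their summed scaled intensity was 216000 to 248000 with both compounds, 235000 to 242000 with MG132, 355000 to 382000 with 4OHT and 401000 to 426000 in untreated cells. Of the 10, 9 fell with MG132, against 19% of all genes. The part of these cells and levels in the results above was not tested.

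The arrays numbered 3 stood lower than the others of their group for several of the 9 genes. Replicate 3 was the lowest of its group in 4 of 4 groups for Nes, Sox11, Dll1 and Hes5, which held for 7.36% of all genes. Taken over the 4 groups, replicate 3 differed from the mean of replicates 1 and 2 by -0.61 ± 0.12 on the log2 scale for Nes (limma adjusted p = 0.014), -0.48 ± 0.07 for Sox11 (adjusted p = 0.0046) and -0.49 ± 0.12 for Hes5 (adjusted p = 0.039), against 10.1% of all genes called in either direction, 5.22% upward and 4.92% downward. Pax6 was lower in replicate 3 by 1.58 on the log2 scale with MG132 and by 1.52 with both compounds, and by 0.06 with 4OHT. Its value over all groups, -0.84 ± 0.25, was not called (adjusted p = 0.07). Within MG132 replicate number and slide cannot be told apart, since replicate 3 lay on slide 2 and replicates 1 and 2 on slide 1. Sox1 went the other way at 0.36 ± 0.13 (adjusted p = 0.13). These calls depended on single groups: without the arrays of both compounds none of the 9 was called, with Nes at -0.54 (adjusted p = 0.11), Sox11 at -0.41 (adjusted p = 0.052) and Hes5 at -0.55 (adjusted p = 0.095), though 6 of the 9 had an unadjusted limma p under 0.05. What the number stands for is not given in the labels.

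**Figure D3:**
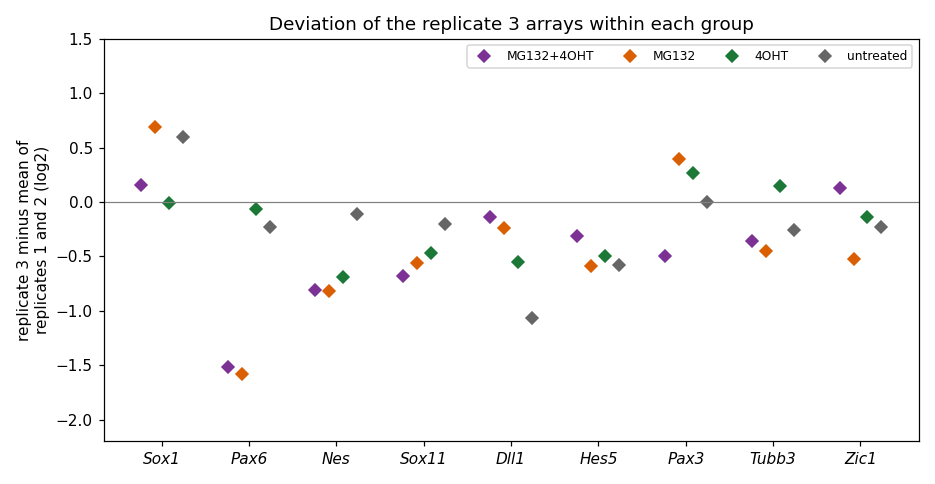
Replicate 3 minus the mean of replicates 1 and 2 on the log2 scale (vertical axis) for each of the 9 genes (horizontal axis) in each of the 4 groups (colours). The 4 values of Nes, of Sox11, of Dll1 and of Hes5 lie below 0, and Pax6 is lowest with MG132, at -1.58. In the MG132 group replicate 3 lay on another slide than replicates 1 and 2.

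For each gene the 3 named genes most like it over the 12 arrays were found by Pearson correlation among 6307 genes (6308 for Sox1) with a standard deviation of at least 0.5. The 12 arrays fall into 4 treatment groups, so such a value mostly describes the order of the groups and carries no test. Pax6 was followed most closely by Syt11 and Hps3 (r = 0.99) and Arf3 (r = 0.98), and Zic1 by Ak1, Plxdc2 and Rab17 (r = 0.99). Nes was followed by Trib1, Fbxo11 and Nfat5 (r = 0.98), and Sox11 by Epcam and Orai1 (r = 0.98) and Sestd1 (r = 0.97). Dll1 was followed by Chgb (r = 0.96), Gm5797 and Calca (r = 0.95), and Pax3 by Gm9734, Sgtb and Gm4922 (r = 0.92). Tubb3 was followed by Plxdc1 (r = 0.98), Foxd1 and 6330403K07Rik (r = 0.97), Hes5 by Cplx1 (r = 0.95), Pbx3 and Bhlhe23 (r = 0.94), and Sox1 by Hesx1 (r = 0.91), Serpinb1a (r = 0.89) and Map2k6 (r = 0.88).

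**Figure D4:**
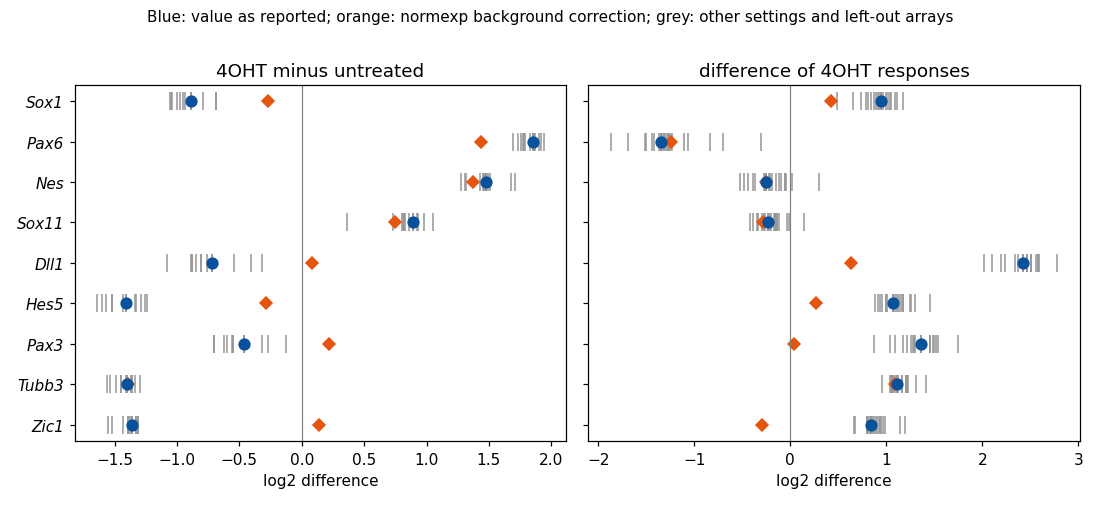
Log2 difference of each of the 9 genes as reported (blue), under normexp background correction (orange) and under the other settings and left-out arrays (grey), for 4OHT minus untreated (left) and for the difference of the 4OHT responses (right). Under normexp the values of Sox1, Dll1, Hes5, Pax3 and Zic1 lie closer to 0 than reported or across it, and those of Nes, Tubb3 and Pax6 keep their side. The offset of 50 units in that run pulls log2 differences of dim spots towards 0.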

How the data were processed

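Total RNA (100 ng an array) was labelled with Cy3 and hybridised to 12 one-colour Agilent arrays, 3 for each of 4 groups taken from the labels. The authors deposited 1 scanner file an array, and the processed intensity in it came, per the file headers, from version 11.0.1.1 of Agilent Feature Extraction, with a flag for spots well above background. Each array had 62976 spots, of which 3671 were controls and left out. The deposited series-wide table held the same intensity values (largest difference 0). The number of arrays limits the precision.

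Log2 of the processed intensity minus log2 of each array's 75th percentile over non-control spots was used. Scaled intensities were multiplied back by the geometric mean percentile, 419 units. Of 56605 probes, 34327 carried that flag on every array of 1 or more groups, and the brightest probe of each gene was kept, which left 26836 genes. A gene that passed through the group where it was high had to differ, so counts over genes that passed carry that choice. Array accessions were matched to the RefSeq GRCm38.p6 table, which named 32994 probes (58.3%). Limma 3.58.1 in R 4.3.3 fitted a mean for each group on the 12 arrays, leaving 8 residual degrees of freedom, and p-values were adjusted by the Benjamini-Hochberg method and called under 0.05. The difference of responses is the contrast of the 4OHT effect with MG132 minus that without. An exact permutation test of 3 against 3 arrays cannot go below p = 0.1, so none is given. Promoter motifs were searched with Python 3.11.15.

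The 9 genes and the 11 gene lists were chosen with earlier results of these data known. All 9 genes were named, with up to 3 called genes of each list by size of change and the 3 most similar named genes of each of the 9, and a few further list genes were added to complete a description after their values were seen. The files held no mean signal, so normexp ran on median signals.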

Additional observations from a re-analysis of the deposited data

Results flagged for a closer look

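The 4OHT response differed by the presence of MG132 for 4 of the 9 genes, by limma's contrast of the responses with adjusted p-values under 0.05, against 6.55% of all genes called. The log2 difference of responses was 2.42 for Dll1, 1.36 for Pax3, 1.11 for Tubb3 and 0.84 for Zic1. Of the arrays with 4OHT alone, none was well above background for Pax3 or Zic1 and 1 of 3 was for Dll1, so these values include signals at background and their sizes are not measured there. Of 25 alternatives the call was kept in 22 for Dll1, 14 for Pax3 and 12 for Zic1, and of 26 in 24 for Tubb3. The sign of Zic1 turned under normexp (-0.29).

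The same contrast was called for 13 other genes among those named, which were up to 3 called genes of each list. Further list genes were called and not named: of the 18 tested neural plate factors, 5 were higher and 2 lower. Of all genes 2.94% were higher and 3.61% lower. Positive differences were 2.49 for Hes3, 1.79 for Nefl, 1.60 for Dtx1, 1.38 for Lhx2 and 0.80 for Jag1. Negative differences were -3.22 for Msx1, -3.21 for Gbx2, -1.81 for Foxd3, -1.64 for Jag2, -1.48 for Slc1a3, -1.45 for Mfng, -1.14 for Cdh2 and -0.81 for Msi2. Hes3 was on none of the 9 treated arrays well above background, so its value compares untreated signal with values below background. Whether any array stood far from its group was not assessed, since groups of 3 are too small for that test.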

How the results depend on the processing

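Among values of single genes, 1265 kept direction and side of the threshold under the alternatives, 102 lost a call, 31 gained one, 46 that were not called changed sign and 2 reversed: under normexp Zic1 was at 0.14 with 4OHT against untreated cells and at -0.29 for the difference of responses. The cause was not tested. The 9 genes called with 4OHT numbered 4 under normexp, and those called for both compounds against MG132 numbered 2 under quantile normalization. Of all genes, 10324 and 7362 were called there. Requiring signal well above background on all 12 arrays leaves 4 of the 9 genes to test. Of these, 4 were called with 4OHT, 1 with MG132 and 2 for both compounds against MG132. For both compounds 1 was called against 4OHT and 3 against untreated cells, and 1 was called for the difference of responses. Of the 20256 genes tested there, 6783, 9781, 6699, 11068, 12386 and 1806 were called, in the same order. With slide as a block, genes called numbered 2987 for both compounds against MG132, 5336 against 4OHT, 7022 against untreated cells (4 of the 9) and 802 for the difference of responses. With slide and replicate block together these were 2312 (2 of the 9), 4833, 6055 (3) and 804 (2). Within slide 2, an alternative chosen after seeing the data, both compounds against MG132 gave 2090 genes and 1 of the 9, a fit with 1 MG132 array that is assumed to vary like the other group, so it supports no call. With no filter on dim probes 14466 genes were called with 4OHT, and with only the arrays compared 5072. Centring on the median put the genes called at 3605 higher and 9452 lower with MG132, against 6473 and 5094 here, and at 4451 and 9995 for both compounds against untreated cells, against 8900 and 6032. Leaving out arrays, the 9 genes called ranged over 2 to 8 with 4OHT, 2 to 4 with MG132, 0 to 6 for both against MG132, 4 to 7 against 4OHT, 3 to 8 against untreated cells and 0 to 5 for the difference of responses. All genes called ranged over 2285 to 8611, 5541 to 13063, 993 to 8828, 7327 to 14342, 8952 to 16472 and 0 to 2910 (limma; 2670 at an unadjusted p under 0.05 where the count was 0) in the same order. The calls of replicate 3 against replicates 1 and 2 numbered 6, 1 and 0 of the 9 without the 4OHT, MG132 and MG132+4OHT arrays. At an unadjusted limma p under 0.05 the last count was 6. All genes called numbered 3444, 1194 and 985 in the same order. On the gene strand alone the RBPJ motif was in 3.29% and the N-box in 24.1% of promoters.

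Same-numbered arrays of different groups correlated in their deviations at -0.06 to 0.41 and differently numbered ones at -0.29 to 0.19. All 6 pairs of arrays numbered 3 lay between 0.12 and 0.41. The labels do not say what the numbers stand for, and they were not taken as pairs, a choice that these ranges do not settle. The replicate block raised the genes called in each comparison, as from 7667 to 8829 with 4OHT. With the replicate block, 8829 genes were called with 4OHT, 12666 with MG132, 8635 for both compounds against MG132, 14487 against 4OHT and 15775 against untreated cells, and 2565 for the difference of responses. The 9 genes called then numbered 8, 4, 5, 7, 9 and 5 in that order. Sox11 was called also with MG132 (-0.30, limma adjusted p = 0.049) and for both compounds against MG132 (0.66, adjusted p = 0.003), 4OHT (-0.53, adjusted p = 0.0035) and untreated cells (0.36, adjusted p = 0.019). Also called were Hes5 for both compounds against untreated cells (-0.45, adjusted p = 0.043) and for the difference of responses (1.07, adjusted p = 0.026), and Dll1 with 4OHT (-0.72, adjusted p = 0.05). Signal over background limits Zic1, Pax3, Dll1 and Hes5 with 4OHT alone.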
